A study of Mus musculus with 2 samples.

Results

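The CCR4-NOT complex was examined through 10 of its subunit genes, Cnot1, Cnot2, Cnot3, Cnot4, Cnot6, Cnot6l, Cnot7, Cnot8, Cnot10 and Cnot11, out of the 27998 genes in the deposited matrices. They were listed by name as the deadenylase machinery that ZFP36 family proteins recruit, and the rule that lists them uses no measured value. All 10 had counts in both libraries and passed the filter on low counts. The data are droplet-based single-cell RNA-seq of jejunal crypts from 2 male mice aged 12 months with a whole-body deletion of miR-375 (375KO), 1 library per mouse, called replicate 1 and replicate 2. The deletion was made with CRISPR/Cas9 in hybrid FVB x B62J embryos and the null mice were backcrossed to B6 albino mice, while the labels give the strain as C57BL6/2J. Both mice carry the deletion and no wild-type library was used, so the comparisons are between cell types, or between the mice, and none measures an effect of miR-375.

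Messenger RNAs carry a poly(A) tail, and its shortening is usually the first step of their decay. CCR4-NOT is the main deadenylase of the cytoplasm. RNA-binding proteins such as the ZFP36 family, which bind AU-rich elements, and the TNRC6 proteins, which act with microRNAs, bring it to their target mRNAs. The nuclease activity comes from paralogous pairs that take the same place in the complex, CNOT6 or CNOT6L and CNOT7 or CNOT8, while CNOT1 is the scaffold on which the other subunits assemble.

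After the filters of the authors, replicate 1 held 2082 cells and replicate 2 held 1193, sorted by them into 10 named cell types, 9 epithelial and intraepithelial lymphocytes (IEL). No barcode was shared between the libraries. Counts of unique molecular identifiers (UMIs, each standing for a captured RNA molecule) were summed over the cells of each mouse and type. The sums held 215413 to 19366535 UMIs for the epithelial types, and 262594 and 225423 for IEL. Of 52 markers of the named types, 48 were highest in their own type in both mice. The exceptions were Ascl2, highest in tuft cells, Pcna and Mcm4, not highest in transit-amplifying (TA) cells, and Atoh1, highest in goblet cells. Goblet progenitors had no marker list and keep the name given by the authors. Since the authors defined the types from the expression of the same cells, a difference between types describes how the annotated classes differ. CPM are the UMIs of a gene per 1000000 UMIs of its sum, and scaled CPM are CPM divided by a TMM factor, which aligns the bulk of genes between sums. Levels are compared between cell types and not between genes, because the reads come from 3′ ends. Paneth cells stood apart. Their top 10 genes held 82.6% and 81.9% of their UMIs, against 8.62% to 25.7% in the other epithelial sums, and their TMM factors were 0.156 and 0.121, against 0.952 to 1.59. The level of any gene in Paneth cells therefore depends on the scaling. With library totals alone, all 10 subunits were called lower in Paneth cells, with log2 fold changes of -4.22 to -2.31. So were 9677 of the 11013 genes tested, and the median of all genes there moved to -3.20.

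Across the 9 epithelial types, 7 of the 10 subunits differed in level, and Cnot6l had the widest range. In the edgeR quasi-likelihood test over all types, 77.3% of the 11013 genes tested passed the adjusted p threshold of 0.05, so the count for the subunits is near the background. The adjusted p was 2.97e-12 for Cnot6l, 0.000403 for Cnot6, 0.0188 for Cnot7, 0.0331 for Cnot1, 0.0367 for Cnot8, 0.0460 for Cnot3 and 0.0496 for Cnot10. Cnot2 (0.586), Cnot4 (0.622) and Cnot11 (0.440) did not pass. The calls of Cnot1, Cnot3, Cnot7, Cnot8 and Cnot10 were lost in a fit without the mouse term, which left 2 subunits. The ratio of the highest to the lowest epithelial type was 8.86 for Cnot6l and lay between 1.54 and 2.56 for the other subunits.

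**Figure D1:**
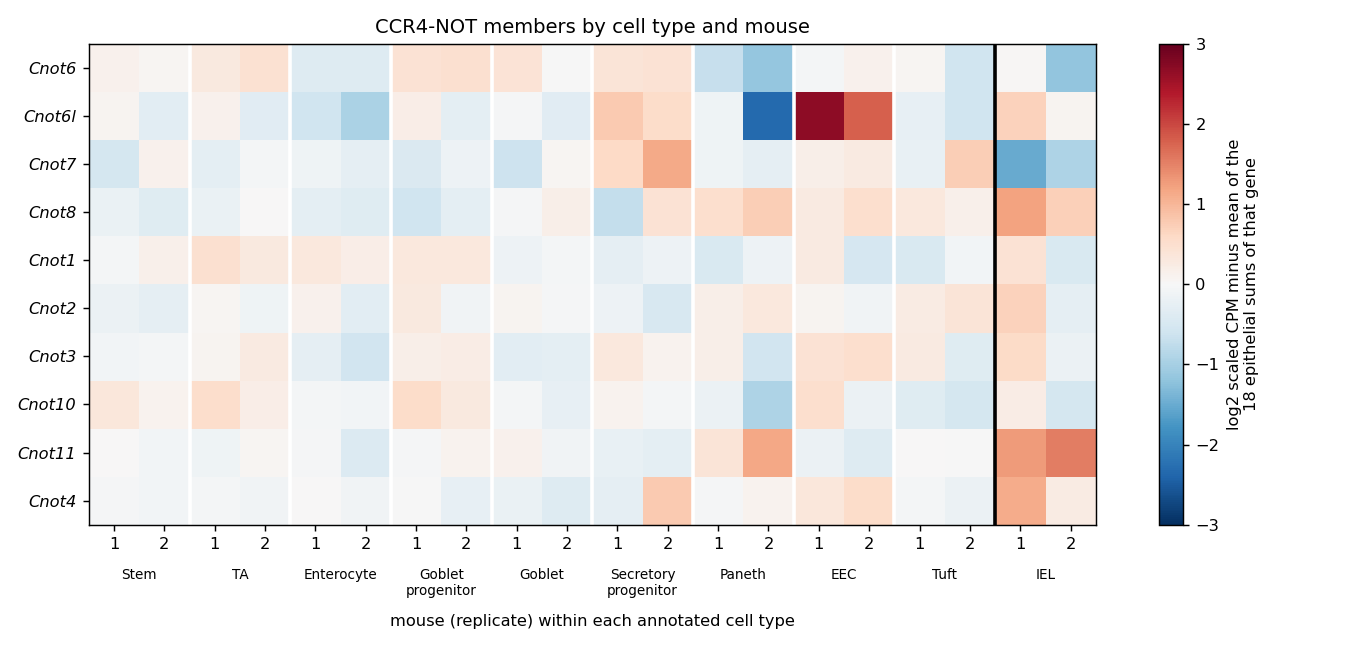
Each row is a subunit and each column a mouse within an annotated cell type; colour gives the log2 scaled CPM minus the mean of the 18 epithelial sums of that gene, from blue (lower) to red (higher). The 2 EEC columns of Cnot6l, at 243 and 131 scaled CPM, are the darkest red cells, and the IEL columns, right of the black line, were scaled together with all 20 sums.

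When each epithelial type was set against the mean of the other 8, 11 of the 90 comparisons of subunits passed, against 24.8% of comparisons over all genes. Of the 11 calls, 7 were on Cnot6 and Cnot6l. By type, enterocytes gave 3 calls (54.5% of genes called), Paneth cells 3 (27.0%), TA cells 2 (32.8%), and EEC (21.6%), goblet progenitors (12.1%) and secretory progenitors (4.78%) 1 each. With edgeR, subunits were called lower only in enterocytes and Paneth cells. None was in stem cells, TA cells, goblet progenitors or goblet cells, where 10.1%, 13.6%, 3.22% and 11.4% of genes were. EEC, secretory progenitors and tuft cells also had none called lower, where 8.12%, 1.26% and 5.98% of genes were. DESeq2 gave none in any of these types either. Before adjustment, the edgeR threshold of 0.05 was passed on the lower side by Cnot6l in tuft cells and Cnot8 in goblet progenitors. Their log2 fold changes were -0.52 and -0.51, and Cnot8 was at -0.53 and -0.43 in the single mice. Without the mouse term 4 calls were left, those of Cnot6l in EEC and enterocytes and of Cnot6 and Cnot11 in Paneth cells. Over the 36 pairs of types the subunits gave 45 calls in 360 comparisons, or 12.5%, against 25.8% over all genes, and Cnot6l gave 16 of them, Cnot6 11, Cnot7 6, Cnot1, Cnot3 and Cnot8 3 each, Cnot10 2 and Cnot11 1.

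Cnot6l encodes a nuclease of the exonuclease-endonuclease-phosphatase fold, the same class as CNOT6. It lies on the minus strand at chr5:96070333-96164171 (GRCm38, the mm10 build) and no other annotated gene overlaps it. Its level in enteroendocrine cells (EEC), the hormone-secreting cells of the epithelium, was 243 scaled CPM in replicate 1 and 131 in replicate 2. Both values were above every other epithelial sum, where it ran from 7.58 in Paneth cells of replicate 2 to 65.3 in secretory progenitors of replicate 1. Before scaling these EEC values were 383 CPM (238 UMIs, exact Poisson 95% interval 336 to 435) and 190 CPM (41 UMIs, 137 to 258). Against the mean of the other types Cnot6l was higher in EEC by 2.55 on the log2 scale (SE 0.16, adjusted p = 1.34e-13), with 2.64 and 2.34 in the single mice. In EEC 13.5% of genes were called higher, and by p Cnot6l ranked 39 and by fold change 626 among those 1490 genes. It was also higher in EEC than in each of the other 8 types, by 1.69 over secretory progenitors (SE 0.26, adjusted p = 6.67e-05) to 3.17 over Paneth cells (SE 0.31, adjusted p = 1.95e-09). The EEC call held under each of the 9 alternative settings tested, while that over secretory progenitors was lost without the mouse term (adjusted p = 0.0639).

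In single cells Cnot6l was found in most EEC. At least 1 Cnot6l UMI was found in 92.6% of 54 EEC in replicate 1 and in 75.0% of 20 EEC in replicate 2, at median depths of 7400 and 9390 UMIs. With every cell thinned to 5000 UMIs, which leaves out 1 EEC of replicate 1, the shares were 77.4% and 45.0%, against 48.4% and 31.6% in secretory progenitors, 26.6% and 18.6% in TA cells and 11.1% and 9.69% in enterocytes. In IEL they were 54.5% of the 11 cells deep enough in replicate 1 and 22.2% of 18 in replicate 2. A cell type that lacks the gene was not at hand to set a background, and the part of free RNA in these shares was not tested. The cell with most Cnot6l UMIs gave 4.62% of those in the EEC of replicate 1 and 17.1% in replicate 2. Markers of other cells were present in EEC. The summed IEL markers stood at 3.22 and 1258 CPM in the EEC of replicates 1 and 2, and without the 3 cells of replicate 2 with at least 5 such UMIs Cnot6l was at 176 CPM. The summed Paneth markers stood at 698 and 116 CPM. In replicate 1 Cnot6l was at 267 CPM (214 to 328) in the 22 cells with fewer than 5 such UMIs. It was at 523 CPM (442 to 614) in the other 32, so the intervals were apart. No EEC of replicate 2 reached 5 such UMIs, and no test of this split was made. In the EEC with fewer than 5 UMIs of the list, Cnot6l thus lay above the CPM of every other epithelial type, where the highest was 91.2 in secretory progenitors of replicate 1.

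Secretory progenitors were second in the order of Cnot6l levels, at 65.3 and 55.4 scaled CPM. They exceeded enterocytes, goblet, Paneth and tuft cells in the pairwise tests, by 1.40 (adjusted p = 0.000163), 0.81 (0.0453), 1.49 (0.00461) and 1.04 (0.0482) on the log2 scale. Against the mean of all other types they did not pass in the main edgeR fit (adjusted p = 0.131). They did pass after thinning to 5000 UMIs (adjusted p = 0.00210) and with library totals. The secretory progenitors were then split by Neurog3, the transcription factor that starts the endocrine programme, a split chosen after the Cnot6l values were seen. In replicate 1 Cnot6l was at 189 CPM (24 UMIs, 121 to 282) in the 9 cells with at least 5 Neurog3 UMIs and at 53.9 CPM (18 UMIs, 32.0 to 85.2) in the other 22. In replicate 2 it was at 157 CPM (9 UMIs, 71.9 to 298) in 5 cells and at 42.0 CPM (7 UMIs, 16.9 to 86.5) in the other 14, and a single cell held 55.6% of the UMIs of the first group. The direction was the same in both mice, the intervals overlapped in replicate 2, and no test was made. Splits by Dll1, Atoh1 and Neurod1 rested on few cells, and those by Dll1 and Atoh1 ran the other way. Cnot6l was at 38.3 CPM in the 6 cells of replicate 1 with at least 5 Dll1 UMIs and at 107 CPM in the others. In replicate 2 it was at 0 in 1 cell and at 77.5 CPM in the others. With Atoh1 it was at 19.2 CPM in 2 cells of replicate 1, against 100 CPM. With Neurod1 it was at 454 CPM in 1 cell, against 85.9 CPM. Within EEC the cells with at least 5 Neurog3 UMIs were at 440 and 167 CPM, and the others at 375 and 196 CPM, with overlapping intervals in each mouse.

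**Figure D2:**
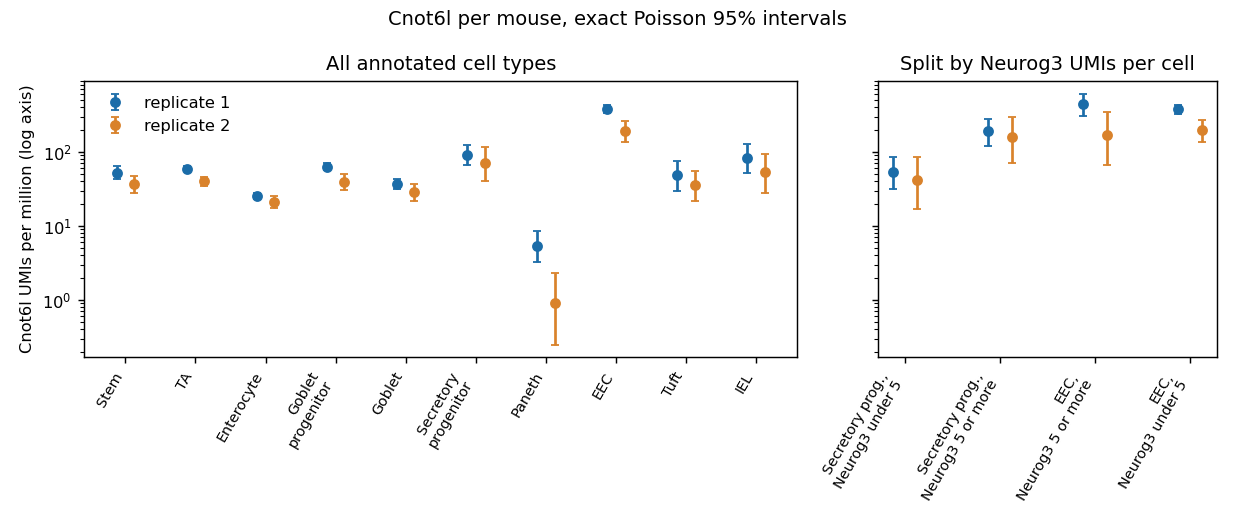
Points give Cnot6l CPM before scaling, on a log axis, for each mouse, with exact Poisson 95% intervals; the left panel shows the annotated types and the right panel splits secretory progenitors and EEC at 5 Neurog3 UMIs per cell. EEC lie at 383 and 190 CPM. Secretory progenitors with at least 5 Neurog3 UMIs lie at 189 and 157 CPM and those with fewer at 53.9 and 42.0 CPM, with intervals that overlap in replicate 2.

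Below EEC and secretory progenitors came goblet progenitors (43.6 and 30.9 scaled CPM), TA cells (41.6 and 30.3), stem cells (40.0 and 30.5), goblet cells (37.3 and 30.1), tuft cells (31.9 and 25.2), enterocytes (25.03 and 19.69) and Paneth cells (34.7 and 7.58). Of the 8 neighbouring pairs in this order, only EEC and secretory progenitors differed beyond the threshold. Enterocytes, the absorptive cells, were lower than the mean of the other types by 0.93 on the log2 scale (SE 0.16, adjusted p = 1.21e-05), with -1.02 and -0.71 in the single mice, against 23.2% of genes called lower. This call also held under each of the 9 alternative settings tested. Paneth cells were lower by 1.03 (SE 0.30, adjusted p = 0.00949), but on 19 and 4 UMIs, with -0.50 in replicate 1 and -2.19 in replicate 2, and the call was lost without the mouse term and after thinning.

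Cnot6, the paralog of Cnot6l (chr11:49671503-49712723, minus strand), followed another order. It was at 51.7 and 52.9 scaled CPM in goblet progenitors, 49.7 and 52.0 in secretory progenitors, 46.8 and 52.6 in TA cells, 41.7 and 39.9 in stem cells and 36.8 and 41.7 in EEC. Goblet cells were at 50.6 and 38.1 and tuft cells at 39.8 and 25.2. The lowest means were in enterocytes, at 29.3 in both mice, and in Paneth cells, at 23.8 and 17.1, and the tuft cells of replicate 2 lay below the enterocytes. TA cells, the dividing daughters of stem cells, were higher than the other types by 0.43 (SE 0.14, adjusted p = 0.0154) and goblet progenitors by 0.50 (SE 0.15, adjusted p = 0.0195), where 19.2% and 8.93% of genes were called higher. Enterocytes were lower by 0.43 (SE 0.15, adjusted p = 0.0136) and Paneth cells by 1.01 (SE 0.29, adjusted p = 0.00795, 11.4% of genes called lower). In EEC, where Cnot6l peaked, Cnot6 did not pass against the mean of the others. The enterocyte call was lost without the mouse term, after thinning, with the stricter cell filter and with library totals, and the Paneth call after thinning. The calls in TA cells and goblet progenitors were lost without the mouse term and when Paneth cells were left out, at adjusted p of 0.0735 and 0.0573 without Paneth cells, and that in goblet progenitors also after thinning (0.0548).

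The UMIs of the pair thus shifted in EEC. Cnot6 held 13.1% of the 274 Cnot6 and Cnot6l UMIs in EEC of replicate 1 (exact Clopper-Pearson 95% interval 9.37 to 17.7) and 24.1% of 54 in replicate 2 (13.5 to 37.6). In the other 8 epithelial types its share ran from 40.6% to 69.2%. TA cells, with most UMIs among the progenitors, gave 53.0% (49.9 to 56.0) and 63.5% (59.6 to 67.3). Both EEC shares lay below all those of the other epithelial types. The EEC intervals did not overlap those of TA cells in either mouse, but in replicate 2 that of EEC overlapped those of secretory progenitors (30.2 to 66.9) and tuft cells (33.8 to 66.2). The share in IEL, at 38.9% and 29.4%, was also below all epithelial types but EEC. No test of the shares was made.

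**Figure D3:**
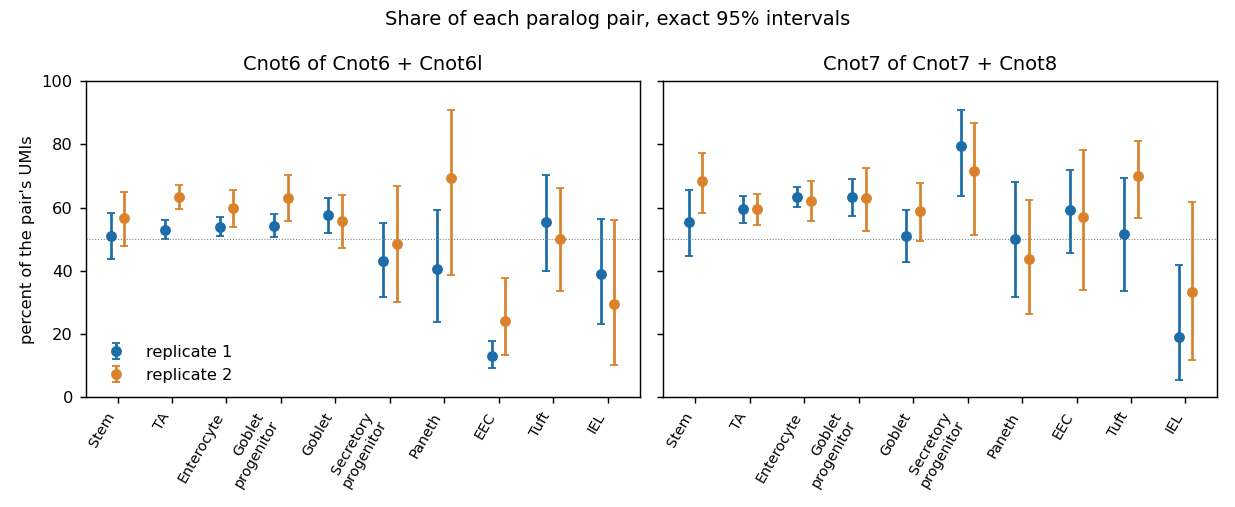
Points give the percent of the UMIs of a paralog pair that fall on the first gene, per mouse, with exact 95% intervals that cover counting error only. In the left panel EEC lie at 13.1% and 24.1%, below all other epithelial types, with an interval in replicate 2 that overlaps secretory progenitors and tuft cells, and in the right panel secretory progenitors lie at 79.5% and 71.4%, with intervals that overlap other types.

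Cnot7 and Cnot8 encode the other pair of nucleases, of the DEDD class. Cnot7 (chr8:40492540-40515847, minus strand) was at 48.2 and 69.3 scaled CPM in secretory progenitors, against 20.8 to 52.8 in the other epithelial sums. The tuft cells of replicate 2, at 52.8, lay inside the range of the secretory progenitors. Secretory progenitors were higher than the other types by 0.93 on the log2 scale (SE 0.26, adjusted p = 0.0284), with 0.86 and 1.06 in the single mice, where 3.51% of genes were called higher. They also exceeded stem cells, TA cells, enterocytes, goblet progenitors, goblet cells and Paneth cells in pairwise tests, by 1.01 to 1.13. The values rest on 31 and 20 UMIs, and the call was lost without the mouse term and after thinning. The 3′ end of Cnot7 overlaps Zdhhc2 on the other strand, and whether reads were counted by strand is not given in the sources used here. Cnot8 (chr11:58104153-58118594, plus strand) was at 29.2 and 34.1 scaled CPM in Paneth cells and at 12.4 to 28.9 in the other epithelial sums. Its 3 called pairs set Paneth cells above stem cells, enterocytes and goblet progenitors, an order that library totals reverse, and with Paneth cells left out its adjusted p over all types was 0.119. Cnot7 held 79.5% of 39 UMIs (63.5 to 90.7) and 71.4% of 28 UMIs (51.3 to 86.8) of the pair in secretory progenitors, against 43.8% to 70.0% in the other epithelial types.

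Cnot1, the scaffold (chr8:95719451-95807464, minus strand), was at 70.3 and 61.4 scaled CPM in TA cells, 62.9 and 62.2 in goblet progenitors, 62.1 and 57.3 in enterocytes and 48.5 and 55.9 in stem cells. Its mean was lowest in Paneth cells (36.6 and 45.5) and tuft cells (36.7 and 47.8). TA cells were higher than the other types by 0.42 (SE 0.13, adjusted p = 0.0140), with 0.54 and 0.32 in the single mice, a call lost without the mouse term. In the pairwise tests TA cells exceeded goblet, Paneth and tuft cells, and no other pair differed.

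Cnot2 and Cnot3 form the module at the carboxyl end of the scaffold. Cnot2 (chr10:116485161-116581511, minus strand) ran from 17.3 to 31.5 scaled CPM over the 18 epithelial sums and passed in none of its 36 pairs of types. Cnot3 (chr7:3645268-3661109, plus strand) had its lowest mean in enterocytes, at 18.9 and 15.2 scaled CPM, and its highest in EEC, at 30.7 and 32.1. Goblet cells of replicate 1 (18.1) and Paneth cells of replicate 2 (15.2) were as low as the enterocytes of the same mouse. Enterocytes were lower than the other types by 0.45 (SE 0.16, adjusted p = 0.0159), but the call was lost without the mouse term and the value turned to 0.19 after thinning. They were also lower than TA cells, goblet progenitors and EEC in the pairwise tests, by 0.57, 0.58 and 0.83. Its 3′ end overlaps Leng1 on the other strand. Enterocytes thus had calls in Cnot3, Cnot6 and Cnot6l, while Cnot1 there did not pass against the other types or against TA cells.

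Cnot10 and Cnot11 form the module at the amino end, and Cnot4 encodes a ubiquitin ligase that binds the complex loosely. Cnot10 (chr9:114585878-114640184, minus strand) was higher in TA cells and goblet progenitors than in enterocytes, by 0.46 (adjusted p = 0.0371) and 0.52 (adjusted p = 0.0332), and ran from 7.58 to 21.1 scaled CPM over the epithelial sums. Cnot11 (chr1:39534992-39546889, plus strand) was flat outside Paneth cells, with 9.58 to 13.9 scaled CPM in the 16 other epithelial sums, and no pair of those types differed. In Paneth cells it was at 16.5 and 28.4 scaled CPM on 9 and 15 UMIs and was called higher by 0.90 (SE 0.34, adjusted p = 0.0448), a call lost with no filter, after thinning and with the stricter cell filter, and a direction that turned to -2.31 with library totals in place of TMM. Cnot4 (chr6:35022065-35133724, minus strand) ran from 21.6 to 48.5 scaled CPM and differed in no pair.

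**Figure D4:**
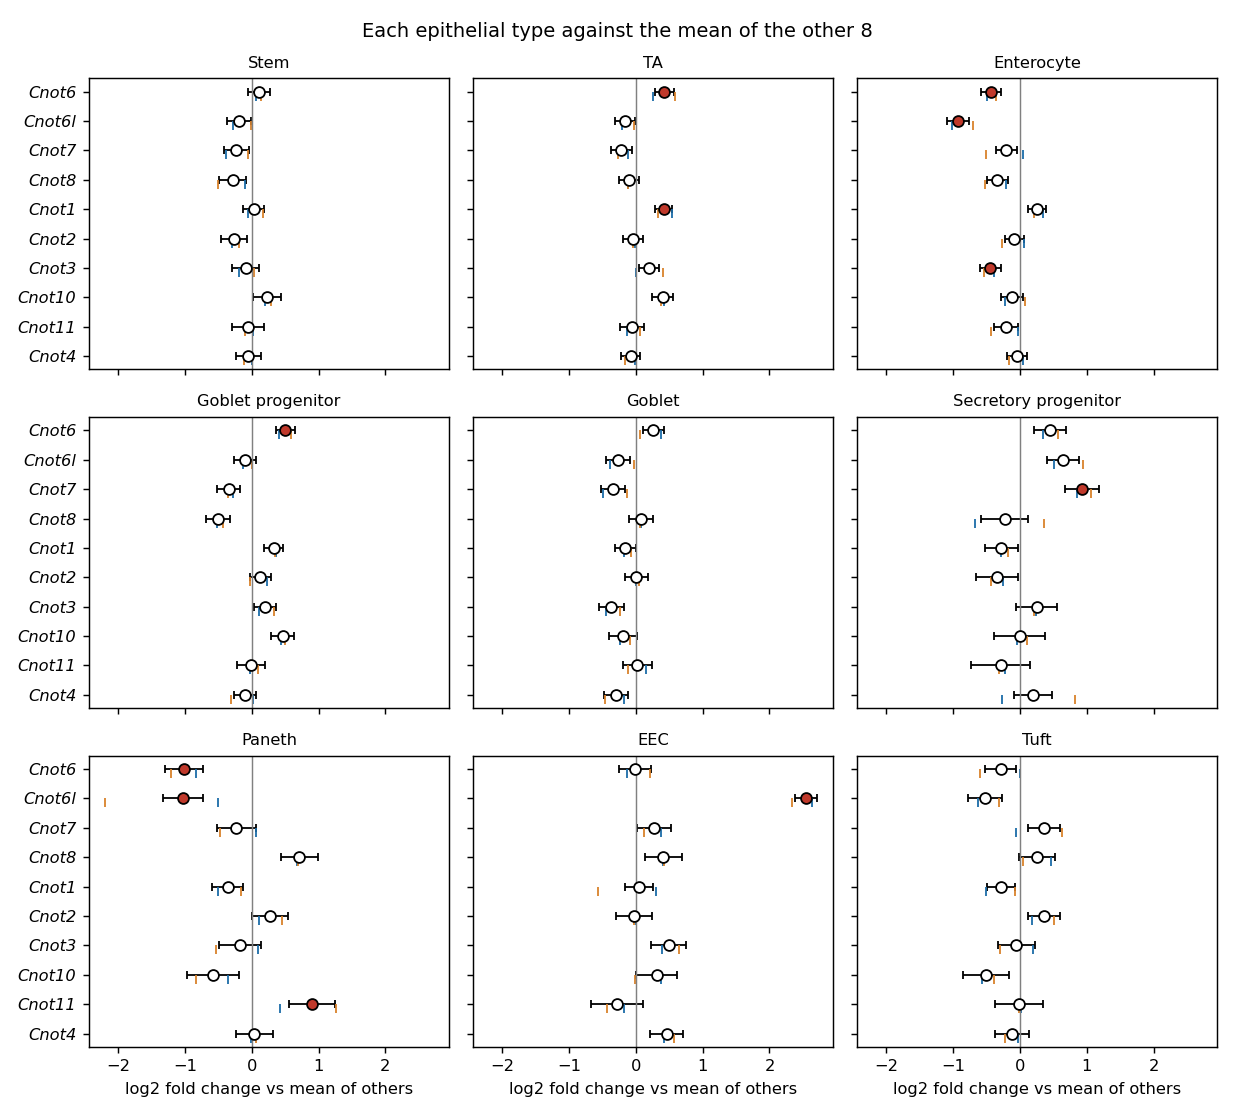
Each panel sets an annotated epithelial type against the mean of the other 8; circles give the log2 fold change with its SE, red where the adjusted p was under 0.05, and blue and orange ticks give replicates 1 and 2 alone. Of the 11 red circles, Cnot6l in EEC at 2.55 stands farthest from 0.

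Stem cells, which renew the epithelium, had no subunit called against the mean of the other types or against TA cells after TMM scaling. Of the pairwise tests of all subunits between stem cells and each other epithelial type, 6 passed. These were with enterocytes, EEC, secretory progenitors and Paneth cells. Over all genes 25.8% of tests passed in the 36 pairs of types pooled, and the share for the stem cell pairs alone is not given. Against the mean of the other types no subunit passed in edgeR, with log2 fold changes from -0.29 to 0.23 and SEs of 0.16 to 0.24, while 25.6% of all genes did. Against TA cells the log2 fold changes ran from -0.34 (Cnot1) to 0.03 (Cnot4), with SEs of 0.19 to 0.26, and no subunit passed, against 4.83% of genes. At an unadjusted p under 0.05 there were 0 subunits in either comparison with the main edgeR fit and 0 with DESeq2. Other edgeR settings gave some. Against TA cells 1 subunit was under it with no filter on low counts, with library totals and with the stricter cell filter. Against the mean of the others 3 were with library totals. With library totals, stem cells had 2 subunits called higher against the mean of the other types, as were 3535 of 11013 genes. The median of all genes in this comparison moved to 0.40. In the single mice the differences from TA cells ran wider, from -0.53 (Cnot1, replicate 1) to 0.19 (Cnot7, replicate 2), with Cnot1 at 48.5 and 55.9 scaled CPM in stem cells and at 70.3 and 61.4 in TA cells. Goblet cells and tuft cells also had no call against the others in edgeR, with 0 and 1 subunits at an unadjusted p under 0.05 and 0 calls by DESeq2, where 29.2% and 16.0% of genes were called. Tuft cells were called lower in Cnot6l when Paneth cells were left out.

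The summed level of the 10 subunits was 343 ± 20.2 CPM in stem cells (SD, n = 2), 423 ± 34.7 in TA cells, 415 ± 51.9 in goblet progenitors, 456 ± 18.1 in secretory progenitors, 257 ± 11.1 in enterocytes, 257 ± 14.9 in goblet cells, 395 ± 15.7 in tuft cells, 699 ± 181 in EEC and 35.1 ± 8.23 in Paneth cells. EEC were highest and Paneth cells lowest, a ratio of 19.9 that shrank to 1.85 after TMM scaling, when EEC stood at 456 ± 91.0 and enterocytes were lowest, at 247 ± 21.1. Without Cnot6l the EEC sum was 412 ± 44.1 CPM. Cnot6l made up 46.4% and 33.3% of the subunits' UMIs in EEC, and 3.13% to 20.6% in the other epithelial types.

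IEL, T cells that lie between the epithelial cells, had 146 and 79 subunit UMIs in 50 and 18 cells. Cnot11 was at 30.9 and 36.8 scaled CPM, above all 18 epithelial sums, and was higher than the epithelial mean by 1.34 on the log2 scale (SE 0.36, adjusted p = 0.00436). Cnot8 was at 47.7 and 33.5 scaled CPM and higher by 0.97 (SE 0.32, adjusted p = 0.0191). Cnot7 was at 11.2 and 16.7 scaled CPM, below all epithelial sums, and lower by 1.27 (SE 0.44, adjusted p = 0.0267), on 4 and 5 UMIs. These 3 calls of 10 compare with 30.0% of genes called. Within the pair, Cnot7 held 19.0% of 21 UMIs (5.45 to 41.9) and 33.3% of 15 UMIs (11.8 to 61.6). Only Cnot11 passed after thinning. The call of Cnot7 was also lost with DESeq2 and with library totals, and that of Cnot8 with no filter on low counts. With the stricter cell filter, which leaves out the IEL of replicate 1, none passed in edgeR, and 3 subunits were at an unadjusted p under 0.05.

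Between the mice no test was made, since each gave 1 library. Over all epithelial UMIs the ratio of replicate 1 to replicate 2 was 1.54 for Cnot6l, and lay between 0.977 (Cnot7) and 1.36 (Cnot2) for the other subunits. These ratios also carry the different shares of cell types in the mice. With the types weighted alike the ratio was 1.65 for Cnot6l and 0.798 (Cnot7) to 1.31 (Cnot10) for the others, with Cnot4 at 0.984 in place of 1.20. No subunit reached a 2-fold difference, against 11.8% of the 7448 genes with at least 10 CPM in either mouse. Cnot6l was higher in replicate 1 than in replicate 2 in all 10 cell types. The median log2 ratio was 0.22 for the subunits and 0.30 for those genes.

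The wider decay machinery was read from 59 further genes, of which 58 were in the matrices and 56 were tested. Of these 31 differed among the epithelial types, or 55.4%, against 77.3% of all genes. Rqcd1, the gene of the subunit CNOT9, differed (adjusted p = 0.00146) and was highest in TA cells, at 21.1 ± 3.63 scaled CPM (SD, n = 2). Of the proteins that recruit the complex, 12 of 16 tested differed. Zfp36l2 was at 187 and 174 scaled CPM in stem cells and at 40.5 to 121 in the other epithelial sums (adjusted p = 1.30e-09 over all types). Zfp36l1 was highest in secretory progenitors, at 96.4 and 83.1, next to Paneth cells at 87.7 and 85.3, and lowest in EEC, at 16.4 and 12.8 (adjusted p = 6.03e-08). Zfp36 was highest in EEC on average, at 114 and 93.0, and next in enterocytes, at 116 and 74.9 (adjusted p = 3.02e-06). The anti-proliferative adaptors Tob1 and Btg1, which bind the CNOT7 and CNOT8 nucleases, were highest in enterocytes (124 ± 43.3) and tuft cells (231 ± 45.0). Tob1 in goblet cells, at 100.5 ± 13.1, differed from enterocytes by less than the spread between mice. So the 3 ZFP36 genes each had their highest mean in a different cell type. In EEC, where Cnot6l was highest, Zfp36l2 was at 70.6 and 89.8, and of the 16 recruiting genes 4 were called higher and 1 lower, where 13.5% and 8.12% of all genes were.

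Of 8 other genes listed as deadenylases 1 differed, or 12.5%, against 77.3% of all genes, a share that also applies to the lists below. The list was set by gene name, and whether each product shortens poly(A) tails was not tested. Noct, a nocturnin-family nuclease of the same fold as CNOT6, was highest in Paneth cells, at 31.5 ± 9.73 scaled CPM (adjusted p = 1.32e-05), a level that depends on the scaling there, while Angel1 (0.0619), Pde12 (0.0754) and Angel2 (0.0967) did not pass. Of the decapping and 5′ decay genes 6 of 13 differed. Dcp1b, a decapping cofactor, was highest in tuft cells, at 37.1 ± 6.18, Ddx6, a helicase that binds CNOT1, in EEC, at 104 ± 60.3, Dcps in goblet cells, at 35.98 ± 8.32, against 35.6 ± 0.960 in stem cells, and Lsm1 in tuft cells, at 77.9 ± 1.94. The poly(A)-binding genes gave 4 of 5, with Pabpc1 (1044 ± 422) and Pabpc4 (38.8 ± 31.5) highest in stem cells, Paip2 (141 ± 13.5) in secretory progenitors and Paip1 (37.2 ± 6.34) in EEC. The exosome, which degrades RNA from the 3′ end, gave 7 of 13, led by Exosc8 (52.7 ± 16.2, highest in TA cells), Dis3 (13.8 ± 7.01) and Exosc2 (20.01 ± 2.44), both highest in stem cells, and Exosc5 (67.8 ± 10.1, highest in Paneth cells, again as scaled). Dis3 in TA cells, at 13.5 ± 7.95, and Exosc5 in stem cells, at 67.7 ± 3.76, differed from these by less than the spread between mice, as did Dcps in stem and goblet cells. The same held for Ddx6, Pabpc1 and Pabpc4, next in Paneth cells at 76.8 ± 30.9, 900 ± 273 and 30.9 ± 15.3. It also held for Exosc8, next in stem cells (45.6 ± 22.1), and Paip1, next in tuft cells (32.3 ± 0.587). In stem cells 6 of the 13 exosome genes were called higher against the other types and none lower, where 15.4% and 10.1% of all genes were.

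Over the 18 epithelial sums the correlation of each subunit with the mean of the other 9, on centred log2 levels, ran from -0.57 (Cnot11) to 0.78 (Cnot3), and was 0.64 for Cnot6l, -0.12 for Cnot1 and -0.30 for Cnot2. The sums share 2 libraries and their depths, so these are descriptions. The 5 genes closest to the mean subunit profile, of 4663 with a mean of at least 20 scaled CPM, were Phip (r = 0.86), Pdap1 (0.84), Kdm1a (0.82), Parp1 (0.81) and Insm1 (0.81), the last a transcription factor of endocrine cells. The mean profile includes the EEC peak of Cnot6l.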

How the data were processed

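The authors aligned the reads of both libraries (10x 3′ kit) to mm10 with Cell Ranger 3.0.1, per the labels, and deposited a matrix of UMI counts per gene and barcode for each library. They name SoupX for free RNA, not for which file, and 2.56% and 4.19% of the matrix entries are listed at 0. They removed cells with few genes or many mitochondrial reads and doublets, clustered the cells in Seurat and named the types from module scores. Per the file headers, the cell table gives UMI counts, the mitochondrial percent, mouse and type of each cell. Its lines follow the columns of the deposited count table of the whole study, with matching UMI totals and gene numbers for 3275 of 3275 cells, and the barcodes there led to the matrices. In that table, each of the 10 subunits had exactly 1 identical line, and 2937 columns of cells from another series were not used.

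UMI counts were summed per mouse and type. After filterByExpr and TMM scaling, genes were fitted with the robust quasi-likelihood method of edgeR 4.0.16, with cell type and mouse as terms (8 residual degrees of freedom, two-sided tests), since sums of the same number come from the same animal. Adjusted p values are Benjamini-Hochberg values over 11013 genes, or 11402 in the separate fit with IEL, at a threshold of 0.05. The p values rest on 2 mice and on a spread shared by the types. Fold changes of single mice used a prior count of 2. The script was tested on simulated data. Intervals cover counting error only. Positions are from GENCODE M21, counted from 1. The alternatives were DESeq2 1.42.0, its size factors, no filter, no mouse term, IEL included, Paneth cells left out, cells thinned to 5000 UMIs, a stricter cell filter (at most 10% mitochondrial UMIs, at least 2000 genes, sums under 10 cells left out), single replicates, and, added after the data were seen, library totals without TMM. All subunits were named. Of the decay lists, the ZFP36 genes and up to 4 genes with the smallest adjusted p were. The subunits and lists were chosen with earlier results of these data known.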

Additional observations from a re-analysis of the deposited data

Results flagged for a closer look

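The barcodes that the authors did not keep enter none of the comparisons and also hold subunit UMIs. The 10 subunits summed to 219 CPM in the 5583 such barcodes of replicate 1 (4453 of 20287851 UMIs). In the 58 of replicate 2 they summed to 108 CPM (163 of 1511657 UMIs). At such depths the limit of 3 UMIs that a count of 0 allows was bound to be passed and decides nothing. Cnot6l stood at 30.4 and 11.2 CPM there.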

How the results depend on the processing

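Sums of the same number share a mouse, and without that replicate block the calls fell to 2 subunits over all types, 4 against the mean of the others, 20 pairs and 15 other decay genes. After thinning to 5000 UMIs they were 3, 6 and 26, with 1 subunit in IEL, and Cnot3 in enterocytes turned to 0.19 on the log2 scale (adjusted p = 0.907). With lymphocytes included 4 subunits differed over all types, with Paneth cells left out 7 were called against the others, and the stricter cell filter gave 0 in IEL with edgeR, with 3 at an unadjusted p under 0.05. DESeq2 gave 6 subunits over all types, 13 calls against the others and 46 pairs. Library totals in place of TMM, added after the data were seen, moved the median of all genes to -3.20 (log2) in Paneth cells and to 0.71 in EEC, and gave 43 calls against the others, 155 pairs and 56 other decay genes, with Cnot11 in Paneth cells at -2.31. Calls over all genes moved too, from 2969 to 9821 of 11013 in Paneth cells and from 3609 to 6502 in TA cells. They rose in every epithelial type but enterocytes and goblet cells, where they fell. For the other settings no share over all genes is given beside these counts. The changes are therefore not read as particular to the subunits. The ratio of the highest to the lowest summed level was 1.85 with TMM. The alternatives were read without scaling, at 27.5 after thinning, 19.4 with the stricter filter and 19.5 to 20.2 in single mice. They compare with the unscaled ratio of all cells given above and not with 1.85. The cause of these shifts was not tested. Leaving out a replicate gives log2 fold changes with no test. Stem cells against TA cells gave 0 calls under each alternative. Low UMI numbers limit Cnot10 and Cnot11 in EEC and in secretory progenitors, with 4 and 3 UMIs in replicate 2 of each type. In replicate 2 Cnot10 also had 4 UMIs in Paneth cells and 3 in IEL, and Cnot2 had 5 in secretory progenitors.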

Other observations

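EEC are a mixture of hormone-producing cells, and Cnot6l was read in cells split by hormone transcripts, at 5 UMIs per cell, after its level in EEC was seen. In replicate 1 it stood at 399.8 CPM in the 10 cells with Gcg, the glucagon precursor, at 418 in the 15 with Ghrl, the ghrelin precursor, at 364 in the 25 with Cck and at 339 in the 13 with Tph1, the enzyme of serotonin synthesis. In replicate 2 the same groups were at 253, 207, 234 and 228 CPM, in 4, 7, 10 and 2 cells. There the 2 cells with Tph1 rest on 4 UMIs, all from 1 cell (62.0 to 583), and a single cell held 54.5% of the 11 UMIs of those with Gcg. The lowest group in both mice was that with Gip, at 269 CPM (95% interval 201 to 352) in 15 cells and 141 CPM (60.7 to 277) in 6 cells, against 435 (375 to 503) and 208 (143 to 292) in the other EEC. The intervals were apart in replicate 1 and overlapped in replicate 2. The groups named had values above the highest CPM of another epithelial type, 91.2, but the intervals of the Gip and Tph1 groups of replicate 2 reached below it. The groups share cells and no test was made.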
